A study of Caenorhabditis elegans with 2 samples.

Results

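The gene described here is mls-2 of the nematode Caenorhabditis elegans, WBGene00003377, taken with 20 kb on each side as 1 of 19973 annotated protein-coding genes. It lies on the minus strand of chromosome X at 4758804–4761640 in ce11 (WBcel235), so that the window runs from 4738804 to 4781640. The window is set by position and uses no signal value, while the gene itself was chosen with earlier results of these data known. It held 7 of the 1925 peaks in the authors' optimal list, the list that passed their irreproducible discovery rate threshold. The measurements were made by chromatin immunoprecipitation sequencing (ChIP-seq), in which DNA crosslinked to a protein is precipitated and sequenced. There was 1 group of 2 biological replicates. The worms were of strain OP645, genotype unc-119(tm4063) III; wgIs645, mixed-stage embryos of pooled sex collected 2 h after egg bleaching. Whole embryos were used, so the cells in which the tagged protein was bound are not separated.

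The integrated transgene wgIs645 stably expresses MLS-2 tagged at its C terminus with GFP-FLAG, and the precipitating antibody was against GFP. The strain therefore carries mls-2 sequence both at the endogenous locus and in the transgene. Reads from these copies cannot be told apart in the peak lists. The sources used here do not give the extent or the copy number of the transgene. The lists were derived with a control alignment, per the deposited file descriptions. That control was not analysed here.

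MLS-2 is a homeodomain transcription factor of the HMX/NKX5 family. Such factors bind short AT-rich DNA sequences through the homeodomain, and many developmental transcription factors act on their own genes as well as on other targets. In C. elegans, mls-2 is known for its part in patterning the postembryonic mesoderm lineage, in the development of cephalic sheath glia and in the specification of AWC olfactory neurons. The question that the locus addresses is where, around the gene that encodes it, the tagged protein was found.

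The DNA under the 7 optimal peaks is shown because these are the positions on which the results turn. Each sequence is from the WBcel235 genome, on the minus strand, which is the strand of mls-2, 5′ to 3′, from upstream to downstream of the gene. Names give the distance of the pooled summit from the annotated 5′ end, and capitals mark matches, on either strand, to 8 short sequences. These are CAATTAA and its core CAATTA for the HMX family, TAATTA for homeodomains in general, the repeat GAGAGA, the G-rich word GGGCGG, the GATA-factor site TGATAA, and a pair of E-boxes, with CAGCTG as one and CACGTG as the other. The strongest peak is shown with 100 bases on each side of its summit and the others with 50. For the peak at the 5′ end only the part outside the transcript is shown. The place in each name is that of the summit, and the last bases shown for the strongest peak lie in exon 3.
Upstream, 1387 bp, chrX:4762977-4763077: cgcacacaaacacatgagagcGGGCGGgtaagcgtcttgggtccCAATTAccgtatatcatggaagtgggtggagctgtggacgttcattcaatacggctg
5′ end, 14 bp upstream, chrX:4761641-4761704: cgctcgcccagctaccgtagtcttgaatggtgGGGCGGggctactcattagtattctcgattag
Intron 2, 735 bp downstream, chrX:4760855-4760955: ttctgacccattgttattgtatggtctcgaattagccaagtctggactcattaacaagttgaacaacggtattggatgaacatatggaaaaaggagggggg
Intron 2, 1524 bp downstream, chrX:4760066-4760166: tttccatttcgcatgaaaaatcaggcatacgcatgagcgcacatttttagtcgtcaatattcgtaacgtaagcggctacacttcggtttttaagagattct
Intron 2, 1726 bp downstream, chrX:4759814-4760014: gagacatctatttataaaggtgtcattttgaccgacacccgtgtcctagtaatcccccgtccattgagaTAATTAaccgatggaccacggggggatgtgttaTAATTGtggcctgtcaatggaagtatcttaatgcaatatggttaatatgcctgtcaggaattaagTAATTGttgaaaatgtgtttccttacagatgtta
Beyond the 3′ end, 8517 bp downstream, chrX:4753073-4753173: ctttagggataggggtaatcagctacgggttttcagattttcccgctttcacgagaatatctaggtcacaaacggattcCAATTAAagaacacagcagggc
Beyond the 3′ end, 10385 bp downstream, chrX:4751205-4751305: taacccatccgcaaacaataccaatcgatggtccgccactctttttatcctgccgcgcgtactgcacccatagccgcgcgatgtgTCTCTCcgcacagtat

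The gene has 6 exons and 5 introns, and the optimal summits fell in 1 of the introns and around the gene, with none in an exon. Intron 2 is 1313 bp long, while the other introns are 46 to 56 bp long. It held 3 of the 7 optimal summits, in 3.07% of the window's length. Another 2 summits lay upstream of the 5′ end, and 2 lay beyond the 3′ end. The peaks in intron 2 carried 1763 of the 2903 units of summed signal in the window (60.7%). Signal is the authors' own score per peak, with a scaling that is not stated, and it is used here to rank peaks within a list and to show their relative size.

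**Figure D1:**
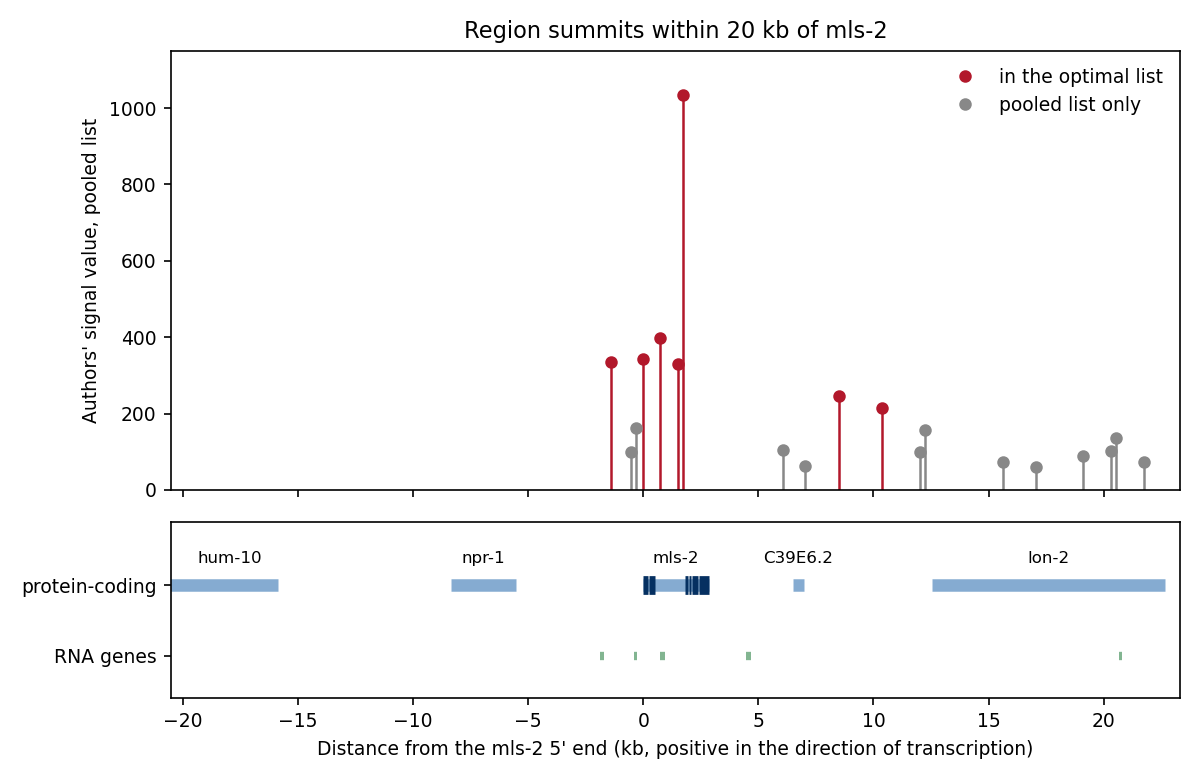
Pooled signal (y axis, the authors' score) of every region summit in the mls-2 window against its distance in kb from the mls-2 5′ end (x axis), with protein-coding genes, mls-2 exons in dark blue and RNA genes below. The 3 summits in intron 2 include the highest, at a signal of 1035, and the upstream side has no summit beyond 1387 bp.

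The strongest peak of the locus was in intron 2, at X 4759745–4760087, with its summit 1726 bp downstream of the 5′ end. It had a signal of 1035 in the pooled list, 596 in replicate 1 and 437 in replicate 2. Both replicates thus placed it near the top of their lists, at rank 55 of 30000 regions in replicate 1 and rank 28 in replicate 2. In the optimal list it ranked 41, and it ranked 10 among the 486 optimal peaks on X. The median signal of all optimal peaks was 290. Its interval was 343 bp wide, where 1372 of all optimal peaks (71.3%) were 470 bp wide and 80 of the 100 strongest (80.0%) were narrower than that. With summits within 200 bp of tRNA, snoRNA, snRNA and miRNA genes left out, it ranked 12 of 1636. Among the 421 of those that lay in a protein-coding gene's intron and in no exon, it ranked 3.

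The next summit lay 202 bp away in the same intron, 1524 bp downstream of the 5′ end (X 4759881–4760350). Its signal was 329 in the pooled list, 132 in replicate 1 and 187 in replicate 2. The replicates ranked it differently, at 2439 in replicate 1, which is outside its 1925 strongest regions, and at 256 in replicate 2. The intervals of this peak and the strongest peak overlap, and 196 of the 1925 optimal summits (10.2%) lay within 250 bp of another.

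The third summit of intron 2, 735 bp downstream of the 5′ end (X 4760670–4761139), showed the opposite order. Its signal was 399 in the pooled list, 312 in replicate 1 and 88.4 in replicate 2. It ranked 324 in replicate 1 and 1449 in replicate 2, so that it was the second strongest site of the locus in replicate 1 and the fourth in replicate 2 among the 5 sites at or upstream of intron 2. The summit was 11 bp from C39E6.11, a noncoding RNA gene of 199 bp annotated inside intron 2 on the other strand.

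The peak at the 5′ end, X 4761419–4761888, had its pooled summit 14 bp upstream of the annotated start. Its signal was 343 in the pooled list, 216 in replicate 1 and 139 in replicate 2. Its rank was alike in both replicates, 780 and 493. The summit fell 15 bp upstream of the start in replicate 1 and 15 bp downstream, in exon 1, in replicate 2. Across the genome, 1130 protein-coding genes (5.66%) had an optimal summit from 1000 bp upstream to 100 bp downstream of a 5′ end, mls-2 among them. Genes that had such a summit and had a summit in an intron of any of their annotated forms numbered 151 (0.756%). In genes with alternative forms, 1 summit can meet both conditions.

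The upstream peak, X 4762792–4763261, had its summit 1387 bp from the 5′ end. Its signal was 334 in the pooled list, 256 in replicate 1 and 79.9 in replicate 2. It ranked 529 in replicate 1 and 1887 in replicate 2, the latter just inside the 1925 strongest regions. Between this peak and the 5′ end the pooled list held 2 weaker regions, 315 bp and 534 bp upstream, at ranks 3661 and 11591. The first lay inside the noncoding RNA gene C39E6.9 and was the region of the locus nearest below the authors' threshold, with a signal of 162.

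Both peaks beyond the 3′ end were weaker. The peak at X 4752888–4753357 lay 5681 bp past the 3′ end, with a signal of 247 in the pooled list, 144 in replicate 1 and 106 in replicate 2. The peak at X 4751020–4751489 lay 7549 bp past it, with signals of 215, 129 and 94.2 in the same order. The latter, at rank 1868, was the weakest of the 7 and close to the lowest signal of the optimal list, 212. Neither reached the 1925 strongest regions of replicate 1, where they ranked 1963 and 2588, and both did in replicate 2, at 918 and 1252. The nearest annotated 5′ end was not that of mls-2 for either peak. It was 1995 bp away, at C39E6.2, for the first and 2172 bp away, at lon-2, for the second. The gene lon-2 encodes a glypican, a cell surface proteoglycan that limits body length through BMP-like signalling.

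All 7 peaks had a summit within 100 bp in the full list of each replicate, against 1810 of all 1925 optimal peaks (94.0%). Among the 1925 strongest regions of both replicates, 4 of the 7 had one, against 1221 of all 1925 (63.4%). Both counts at mls-2 are near the shares over all peaks. Those 4 were the strongest intron 2 peak, the intron 2 peak at 735 bp, the peak at the 5′ end and the upstream peak. The optimal list was made from the same 2 replicates pooled, so this agreement was in part built in. Taken alone, the 1925 strongest regions of replicate 1 put 4 summits in the window and those of replicate 2 put 8. The additional summit of replicate 2, at rank 1476 there, was 324 bp upstream of the 5′ end of lon-2 and ranked 3878 in the pooled list.

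**Figure D2:**
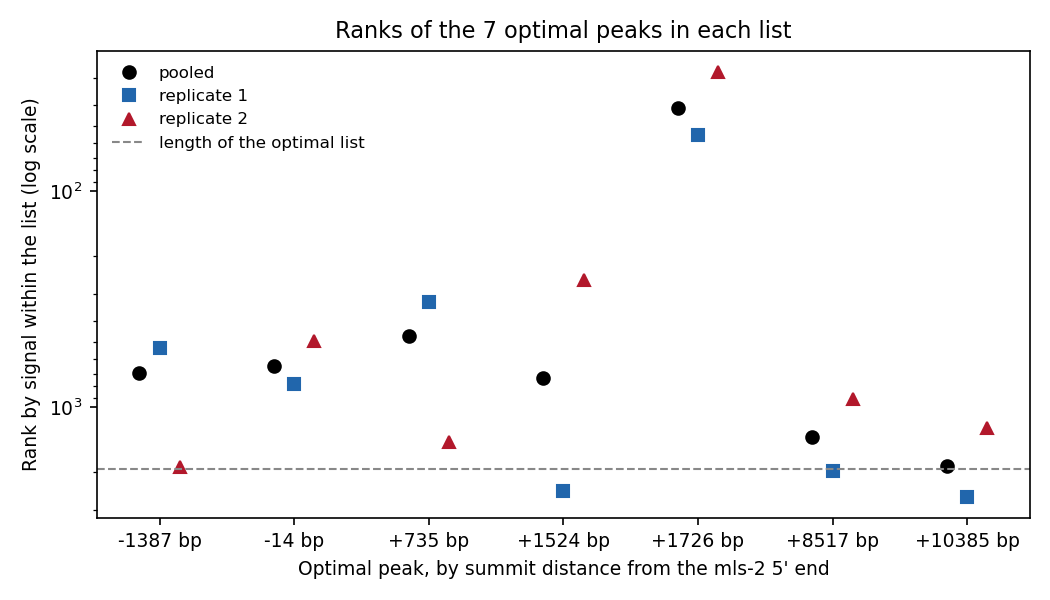
Rank by signal within each list (y axis, log scale, strongest at the top) of the 7 optimal peaks, ordered by the distance of the summit from the mls-2 5′ end (x axis), in the pooled list and in each replicate. The peak at 1726 bp ranked 41, 55 and 28, and the points of the replicates are far apart at 1524 bp, 735 bp and 1387 bp upstream.

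The balance between replicates was compared with that of all optimal peaks. Over the 1810 optimal peaks matched within 100 bp in both replicates, the log2 ratio of the signal in replicate 1 to that in replicate 2 had a median of 0.97 and an SD of 0.42. The intron 2 peak at 1524 bp had a log2 ratio of -0.50, a deviation of -1.48 from the median, and 11 of the 1810 peaks (0.608%), itself included, were as far from it. The intron 2 peak at 735 bp and the upstream peak deviated the other way, by 0.85 and 0.71 on the log2 scale, with 4.75% and 9.45% of peaks as far. The strongest peak deviated by -0.53 and the peak at the 5′ end by -0.34, with 18.3% and 37.3% of peaks as far. With 1 value per replicate no error can be attached to a single peak's ratio.

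The DNA at the summits occurs once in the genome at this resolution. Of the 36-base words within 150 bp of each summit, 266 per peak, none had another exact copy in WBcel235. Copies in the transgene are not part of that genome sequence.

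The window of mls-2 held more optimal summits than that of most genes on X. Of 2731 protein-coding genes on X, 1743 (63.8%) had 1 or more optimal summits in the gene and 20 kb each side, with a median of 1 and a highest count of 8. Of the 2730 genes other than mls-2, 13 (0.476%) had at least 7. The share was 4.98% without replicate 2, where the mls-2 window held 4 summits, and 0.147% without replicate 1, where it held 8. Neighbouring genes share windows, and these 13 lay in 5 stretches of X, 1 of them that of mls-2 itself. Those in the mls-2 stretch were lon-2, C39E6.2 and npr-1, a neuropeptide receptor gene known for its effect on social feeding, whose window held 8. Elsewhere they included hbl-1, a hunchback-family zinc finger gene of the heterochronic pathway, with 8, and unc-2, a voltage-gated calcium channel gene, with 7. Over all chromosomes 43 of 19972 other genes (0.215%) had at least 7.

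**Figure D3:**
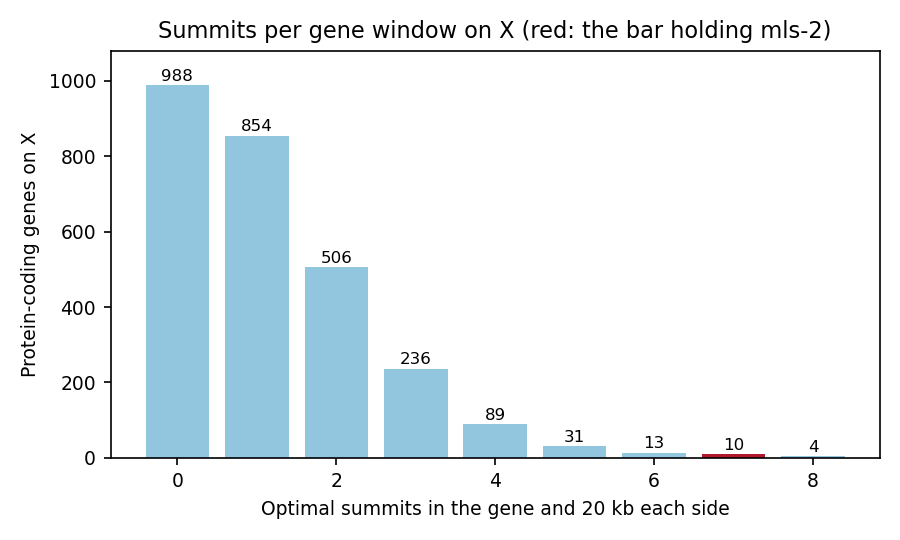
Number of protein-coding genes on X (y axis) by the number of optimal summits in the gene and 20 kb each side (x axis). The bar at 7 summits holds 10 genes, mls-2 among them, and 988 genes had no summit in the window.

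Within the gene itself the count was also at the upper end. An optimal summit inside the gene was found for 540 of 19973 protein-coding genes (2.70%), and 24 of the 19972 other genes (0.120%) had 3 or more. On X there were 5 such genes among the other 2730 (0.183%). These 5 were him-4, ldb-1, F09A5.3, igcm-4 and syd-9, named here after their values were seen. All 5 are longer than mls-2. Among 5691 other genes whose length was within 0.5 log2 units of that of mls-2, Y62F5A.9 on chromosome II alone had 3 or more (0.0176%). The 3 summits inside mls-2 include 2 that are 202 bp apart, with overlapping intervals. The strongest regions of replicate 1 put 2 summits in intron 2 and none elsewhere in the gene. By summed signal inside the gene, 1763, mls-2 stood at place 6 of all genes, with 5 of 19972 others (0.0250%) above it, lsy-22 (2735), frm-7 (2651), zfp-1 (2292), cutl-18 (2019) and ppfr-1 (1954).

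Intron 2 was short for an intron with several summits. Of 109613 annotated introns of protein-coding genes, counting alternative forms, 540 (0.493%) held an optimal summit and 17 (0.0155%) held 3 or more. Intron 2 of mls-2, at 1313 bp, was the shortest of the 17, and the next shortest was 3128 bp, in igcm-4. Among 5400 introns of at least 1000 and under 2000 bp, 87 (1.61%) held an optimal summit and 1 (0.0185%), that of mls-2, held 3 or more. The 5 summits from intron 2 to the upstream peak lay within 3113 bp, and 1 other run of 5 optimal summits in the genome was as tight, at II 11534704–11537655. Both the 3 summits of intron 2 and this run of 5 include 2 summits that are 202 bp apart, with overlapping intervals. Counted together, these would leave intron 2 with fewer than 3 and the run with fewer than 5. Among the strongest regions, intron 2 held 2 summits in replicate 1 and 3 in replicate 2.

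When all protein-coding genes were ordered by the summed signal of optimal summits from 5 kb upstream to the 3′ end, mls-2 came at place 6 of 19973, with 5 summits and a sum of 2440. It came at place 10 with the strongest regions of replicate 1 and at place 4 with those of replicate 2. A sum above 0 was found for 2721 genes (13.6%). The closest genes above it in this order were ftt-2, a 14-3-3 protein gene on X, with 2 summits and a sum of 2462, and srg-45 and frm-7 on chromosome V, both with a sum of 2651 from 1 and the same peak, at V 12303366–12303891, the strongest of the optimal list. The closest below were Y39E4B.6 (2358) and zfp-1 (2292) on chromosome III, with 5 summits each, and din-1 on chromosome II, with 6 summits and a sum of 2260. The gene zfp-1 encodes a zinc finger protein of the AF10 family and din-1 a corepressor that binds the nuclear receptor DAF-12. So the genes with a like sum rested on between 1 and 6 summits.

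Other homeobox genes on X had fewer summits than mls-2, at counts near those of X genes in general. Of 25 such genes in the list used, 13 (52.0%) had an optimal summit in the gene and 20 kb each side, against 63.8% of all protein-coding genes on X. Their median was 1, as over all X genes, and their highest count was 3, against 7 at mls-2. A summit inside the gene was found for 2 of the 25 (8.00%), against 4.10% of all other genes on X. From 5 kb upstream to the 3′ end it was found for 5 of the 25 (20%), against 18.7% of all other genes on X. The highest sums were those of ceh-39, a ONECUT homeobox gene (734), ceh-14, a LIM homeobox gene (491), ceh-63 (308) and ceh-21 (227), against 2440 at mls-2. The genes ceh-21, ceh-39 and ceh-41 are neighbours that share part of their windows, and each had the highest window count of 3. The gene lim-6, elsewhere on X, also had 3.

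CAATTA, a core of the site bound by HMX proteins, occurred within 50 bp of the summit at 3 of the 7 peaks, the strongest peak, the upstream peak and the peak 8517 bp downstream. It occurred at 112 of all 1925 optimal peaks (5.82%) and at 27 of the 486 on X (5.56%). In the strongest peak the match centre lay 4 bp from the summit, with a second match 69 bp and a TAATTA match 29 bp from the summit, all visible in capitals above. In 2 of the 7 peaks a match centre lay within 10 bp of the summit, against 26 of all 1925 (1.35%), a distance chosen after the sequences had been seen. A match is a description of the letters and does not show that the protein bound them.

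The longer form CAATTAA occurred at 1 of the 7 peaks, that 8517 bp downstream, and at 33 of all 1925 (1.71%). GGGCGG occurred at both upstream peaks, including that at the 5′ end, and at 9.51% of all optimal peaks. GAGAGA occurred at 1 peak of the 7 and at 24.9% of all, and the GATA-factor site and both E-boxes at none of the 7. The last 3 are rare at optimal peaks in general, with TGATAA at 2.03%, CAGCTG at 3.84% and CACGTG at 1.92%. Matches overlap, since every CAATTAA holds a CAATTA. Over the whole window CAATTA occurred 44 times, or 1.03 per kb against 0.983 per kb on X, and 3 of the 44 lay within 50 bp of an optimal summit. The sequence within 50 bp of the 7 summits had a mean of 46.5% G and C (SD 6.16, n = 7 peaks), against 49.5% (SD 7.67, n = 1925) at all optimal peaks and 35.2% over X. The 3 summits in intron 2 had 41.6%, 39.6% and 41.6%, against 34.9% over intron 2.

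The weaker regions of the lists were examined because the strain carries additional mls-2 sequence. The window held 19 of the 30000 pooled regions, 0.444 per kb, against 0.265 per kb on the rest of X, a ratio of 1.68. The ratio was 1.30 in replicate 1 and 2.04 in replicate 2. Of the 2730 other genes on X, 298 (10.9%) had windows with as many pooled regions per kb. For the 7 optimal peaks the ratio was 6.03, above that of the full pooled list. The 1925 strongest regions of replicate 1 put 4 in the window and those of replicate 2 put 8, so the size of this contrast differed between replicates.

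The regions were unevenly spread on both sides of the gene. Upstream of the peak at 1387 bp the pooled list held no region over 22958 bp, as far as 24345 bp from the 5′ end. On X the median distance between neighbouring pooled summits was 1560 bp, and 154 of 4695 distances (3.28%) were as long. Long distances take up more of the chromosome than their number shows. Of 3543 bins of 5 kb on X, 1558 (44.0%) held no pooled region. The genes npr-1 and hum-10, an unconventional myosin gene, lie inside the stretch of 22958 bp. In the list of replicate 2 alone, 2 weak regions of the window fell there, at ranks 5667 and 8621, besides 1 at rank 23977 that was 254 bp from the upstream peak. On the other side the pooled list held 12 regions beyond the 3′ end, 6 of them inside lon-2, none of which was in the optimal list. No summit in the window lay within 200 bp of the microRNA genes mir-247 and mir-797, which lie between C39E6.2 and mls-2. The part of the transgene in these values was not tested.

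**Figure D4:**
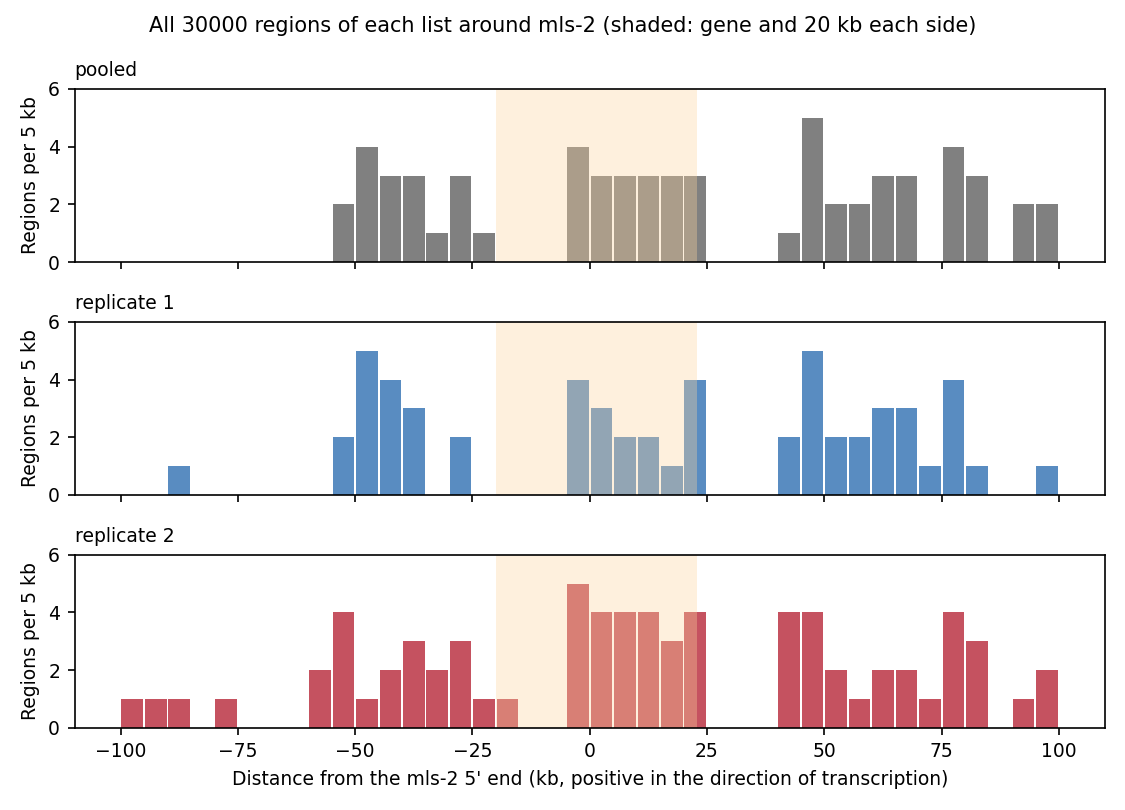
Number of regions per 5 kb (y axis) in the pooled list and in each replicate's list against distance in kb from the mls-2 5′ end (x axis), with the gene and 20 kb each side shaded. Counts were 3 or 4 per 5 kb from 5 kb upstream to 25 kb downstream in the pooled list, 0 from 5 to 20 kb upstream, and reached 5 outside the window, 45 to 50 kb downstream. Over X, 44.0% of 5 kb bins held no pooled region.

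The unc-119 locus was set beside it, because the strain has the unc-119(tm4063) allele and lines of this kind are commonly made with an unc-119 rescue in the transgene. The labels do not say whether wgIs645 carries one. The gene unc-119 (III 10902641–10908935) with 20 kb each side held 1 optimal summit, at rank 1625 with a signal of 231, and none inside the gene. That is 0.951 times the density of the rest of chromosome III. Its window held 23 of the 30000 pooled regions, 1.23 times the density of the rest of the chromosome, with 1.36 times in replicate 1 and 0.864 times in replicate 2. Inside unc-119 there were 7 of these 23 pooled regions, the best at rank 5118. The full list of replicate 1 had 5 regions inside the gene and that of replicate 2 had 2. Pooled regions were thus denser inside the gene than over its window (0.497 per kb), which the window ratio does not show. In the pooled list this was also so at mls-2, with 3 inside the gene against 0.444 per kb over its window. In replicate 2 alone, regions inside unc-119 were not denser than over its window (0.324 per kb). How many other genes were as dense in pooled regions inside the gene was not counted. The part of the transgene in these counts was not tested.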

How the data were processed

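ChIP-seq peak lists for tagged MLS-2 from 2 biological replicates of 1 group were used, in ce11. Per the deposited file descriptions, each replicate's list and the pooled list hold peaks together with background, from which the irreproducible discovery rate was taken, and the optimal list holds the peaks that passed. The score in column 7 of the deposited lists is the authors' signal value. Column 10, read with the 0-based start, gives the summit, an offset in bases deposited by the authors. The sources used here name no peak caller, aligner, threshold or version. Read totals were not used here, so the depth is unknown and no interval was derived from it. The optimal list was found to equal the 1925 pooled regions of highest signal. The ce10 lists were not used, since no coordinates were converted.

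Genes came from Ensembl release 115 and sequences from the RefSeq WBcel235 genome. Summits were counted in windows with Python 3.11.15, numpy 2.4.6 and pandas 2.3.3, and the counting was tested on simulated data. Shares over all genes, introns or peaks are descriptions. With 1 group no test between conditions was possible and no p-value is given. Named genes were mls-2, the protein-coding genes of its window, RNA genes near a summit, unc-119, the 3 genes above and below mls-2 in the order by summed signal, and the 4 highest homeobox genes on X. Others are named where a count was 5 or fewer, or as examples, after their values were seen. The gene, the lists and the motifs were chosen with earlier results of these data known. Alternatives were flanks of 10 and 50 kb, each replicate alone, the stronger part of the list, other matching rules and motif distances of 25 and 100 bp, and, added after seeing the data, merging of summits within 250 bp.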

Additional observations from a re-analysis of the deposited data

How the results depend on the processing

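The summits at mls-2 numbered 7 with 10 kb each side and 9 with 50 kb. With 1 replicate left out they ranged from 4 (replicate 1 alone) to 8 (replicate 2 alone), the 962 strongest peaks gave 5 and merged summits gave 6. The best rank ranged from 28 to 55 with 1 replicate left out. The summed signal, 2903 in the pooled list, was 3513 with 50 kb and from 1219 to 1379 in the replicate lists, whose signal scale differs. The share of other X genes with at least as many summits, 0.476%, was 0.0733% with 10 kb, 1.17% with 50 kb, 0.183% per kb of window and 0.659% with summits merged. With 1 replicate left out it ranged from 0.147% to 4.98%, the higher value without replicate 2, where the window held 4 summits. The cause was not tested. Peaks placed by both replicates numbered 4 of 7, and 7 of 7 against all regions of each list. The density ratio of pooled regions was 2.15 with 10 kb and 1.47 with 50 kb, and ranged from 1.30 to 2.04 with 1 replicate left out. Peaks with CAATTA numbered 2 within 25 bp and 3 within 100 bp. No paired analysis was possible because there was 1 group. Depth is unknown, and an input library was not analysed here.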
